A study of Mus musculus with 24 samples.

Results

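Carbonic anhydrases are zinc enzymes that interconvert carbon dioxide and water with bicarbonate and a proton. The genes described here are those whose platform symbol is Car followed by a digit: 9 genes with 10 probe sets (sets of short oligonucleotides that together give 1 signal), of 8252 genes and 12488 probe sets on the array. They are Car1, Car2, Car3, Car4, Car5a, Car6, Car8, Car12 and Car14, of 16 family members in the reference gene table. Car4 has 2 probe sets and every other gene has 1. Total RNA from whole-thickness gut of conventional mice, which carry a microbiota, and of germ-free mice, which carry none, was measured on 24 Affymetrix arrays, 3 for each microbial state in each of 4 regions. The regions were the corpus of the stomach (the stomach without its antrum), the jejunum (the small intestine without its first and last few centimetres), the descending colon and the rectum, which was the last stretch of the tube. Strain, age and sex were not among the labels used here, and the comparisons ask how the gut differs by region and by the presence of microbes. The labels do not say that arrays of a group came from separate mice, so p-values measure the spread between arrays, which may be partly technical.

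In the gut, this reaction supplies protons and bicarbonate to the transporters of the epithelium. Car2 is a fast cytosolic enzyme that acts with the proton pump of the parietal cells, the acid-secreting cells of the stomach, and with bicarbonate and chloride exchange in the colon. Car1 is a slower cytosolic enzyme of red cells and of colonic epithelium, and Car3 is a weakly active cytosolic enzyme abundant in fat and skeletal muscle. Car4 is held on the cell surface by a lipid anchor, Car12 and Car14 span the membrane with the active site outside, Car5a is mitochondrial and Car6 is secreted. Car8 has lost catalytic activity and is best known from Purkinje cells of the cerebellum.

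Signals are the authors' linear intensities, and a level of 21.2, the 25th percentile of all signals, served as a floor below which values have no order. A probe set was tested when it exceeded 51.5 on at least 3 arrays, which 9033 sets did, among them 9 of the 10 carbonic anhydrase sets. Car6 lay between 3.6 and 14.2, under the floor on all 24 arrays, and was not tested. Differences are log2 differences with their standard error from limma, with p-values adjusted over all 9033 sets by the Benjamini-Hochberg method, and a set is called at an adjusted p under 0.05. In whole tissue, fewer cells of a type and less RNA per cell cannot be told apart. Levels are compared between groups for 1 probe set at a time, never between genes.

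Region markers that are not carbonic anhydrases went against the label on 3 arrays. Hoxb13, a hindgut homeobox gene, was at 1625.8 on the array labelled conventional jejunum 3 and at 1399.4 on the array labelled germ-free corpus 3, against 1355.3 to 1727.8 on the conventional descending colon arrays and conventional rectum 2 and 3. On the array labelled conventional rectum 1, Hoxb13 was at 41.7 and Apoa4, an apolipoprotein of small intestinal absorptive cells, at 2765.9. The arrays labelled germ-free corpus 3 and germ-free descending colon 3 were the closest of all 276 pairs, with an SD of 0.251 in log2 difference against 0.362 for the next pair. Counts of called sets and most of the called regional differences are therefore also given without those 3 arrays. Leaving arrays out by their region markers favours calls between regions by construction, as it makes arrays of a group more alike. Single differences grew, shrank or stayed. Germ-free descending colon 1 had low Hoxb13 as well, 111.6, and germ-free rectum 1 held the gastric pump gene Atp4a at 1967.8.

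**Figure D1:**
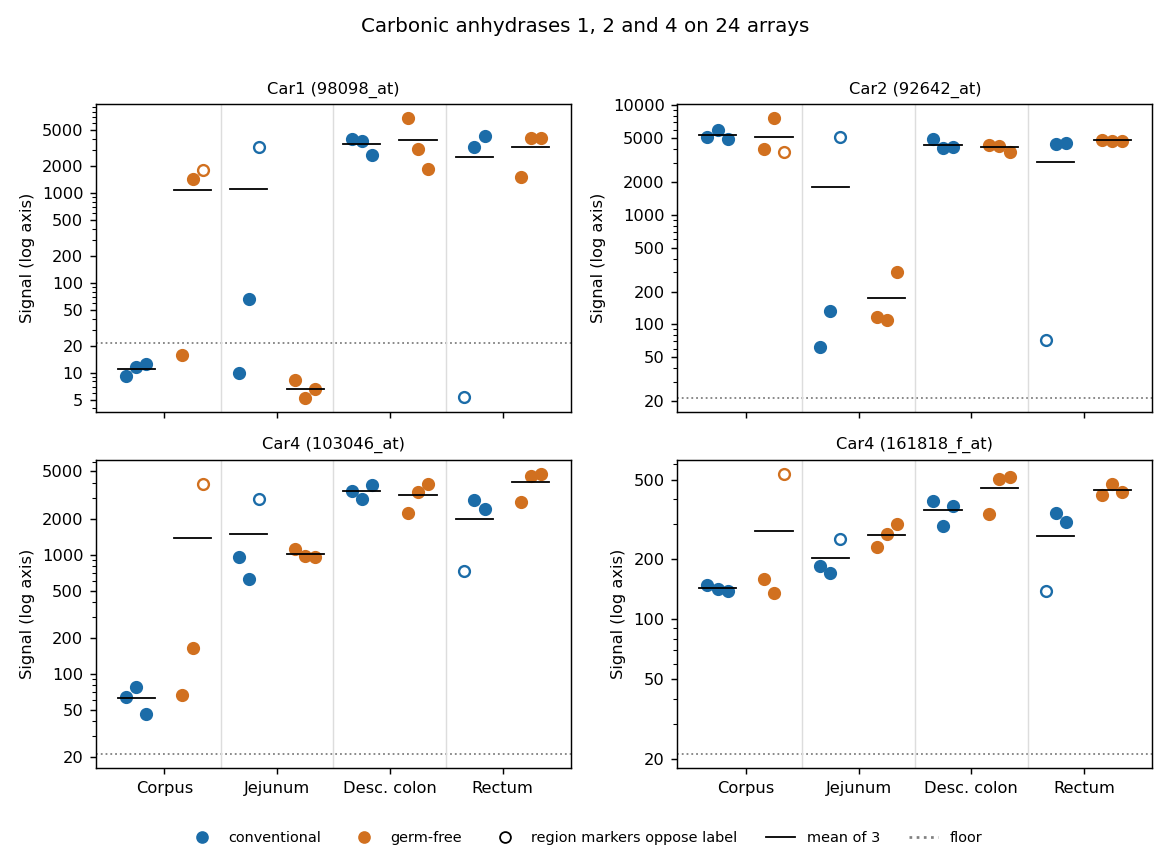
Signal of Car1, Car2 and both Car4 probe sets on each of 24 arrays, on log axes, by region and microbial state, with the mean of each group of 3 as a bar and the floor of 21.2 dotted. Open points are the 3 arrays whose region markers oppose the label: the open jejunum point for Car2 sits at 5185.5 and the open rectum point at 71.4.

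Car1 was a gene of the hindgut arrays. In conventional mice it read 3974.3, 3833.8 and 2682.5 in the descending colon, and in germ-free mice 6818.1, 3123.9 and 1860.7. The array at 6818.1, the highest of all, had a hindgut homeobox sum of only 274, against 1312.5 and 1607.3 on the other germ-free descending colon arrays. All 3 conventional corpus arrays, at 9.2, 11.5 and 12.6, and all 3 germ-free jejunum arrays, at 8.2, 5.2 and 6.6, were under the floor. The descending colon arrays overlapped with none of these. Of all sets, 36.1% stood apart between descending colon and corpus of conventional mice, and 29.7% between descending colon and jejunum of germ-free mice. Car1 was at least 162-fold higher in the descending colon than in the corpus of conventional mice (log2 difference 7.34 ± 1.79, limma adjusted p = 0.00875; 7.34 ± 0.92, adjusted p = 6.65e-06, without the 3 arrays). It was at least 161-fold higher in the descending colon than in the jejunum of germ-free mice (7.33 ± 1.79, limma adjusted p = 0.0138), a call that was lost without germ-free descending colon 2 or germ-free jejunum 1 (adjusted p up to 0.0583) and was 7.33 ± 0.92 (adjusted p = 1.31e-05) without the 3 arrays.

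The other Car1 groups were split. Conventional jejunum read 10, 66.5 and 3289.7, the last on the array with hindgut markers, and conventional rectum read 5.3, 3224.5 and 4263.4, the first on the array with small intestinal markers. Germ-free rectum read 1513.8, 4127.9 and 4074.7. Germ-free corpus read 15.7, 1432.5 and 1827.8. The highest of these is the array that resembles germ-free descending colon 3, where Car1 was 1860.7. The middle value, on germ-free corpus 2, stood on an array with Atp4a at 14479.1, Hoxb13 at 48.7 and Aqp8, a water channel of colonic epithelium, at 111. The sum of 5 colonocyte genes on that array was 903.9, against 431.9 to 657.4 in the conventional corpus and 7826.8 to 12210.6 in the conventional descending colon. Its sum of 7 goblet cell genes was 4536.3, against 1517 to 2977.5 in the conventional corpus and 40166.3 to 49485.6 in that colon, and 5 hindgut homeobox genes summed to 89.9, against 62.4 to 70.8 and 1683.9 to 2022.4. In the germ-free jejunum the colonocyte sum was 8056 to 9262.3 and the goblet cell sum 37377.5 to 44084.2. Neither sum therefore sets colon apart from small intestine. The sum of 10 small intestinal enterocyte genes on germ-free corpus 2 was 4866.1, against 2410.9 to 4022.7 in the conventional corpus. The part of intestinal cells of any kind in the Car1 signal of that array was not tested. With the 3 arrays left out, the Car1 difference between descending colon and jejunum in conventional mice was 6.52 ± 1.03 (limma adjusted p = 0.000221) against 4.37 ± 1.79 (adjusted p = 0.408) with all arrays.

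The genes whose log2 signals ran most like Car1 over the 24 arrays were Tgoln1, a trans-Golgi protein gene (Pearson r = 0.962), 2610528A11Rik (r = 0.952) and Hao2, a peroxisomal hydroxyacid oxidase gene (r = 0.952), of 8092 candidate sets. These correlations describe arrays that share groups and regions. On germ-free corpus 2, where Car1 was 1432.5, Tgoln1 was 952 against 558.9 to 615.7 in the conventional corpus, 2610528A11Rik was 61.6 against 4.0 to 5.5, and Hao2 was 58.5 against 1.3 to 5.2. All 3 were nearer to the corpus than to the descending colon on that array. The conventional corpus values of 2610528A11Rik and Hao2 were under the floor. On germ-free corpus 1, where Car1 was 15.7, Tgoln1 was 518.3, 2610528A11Rik 51.5 and Hao2 3.9. Red cells also hold Car1: the summed signal of 6 erythroid genes ran from 738.1 to 4814.4, and the array with the highest sum, conventional descending colon 3, had the lowest Car1 of its group. Hbb-b2 and 5 other measured genes make up that list, and their part in the Car1 levels was not tested.

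Car2 was high in the corpus and in the hindgut and low in the jejunum between them. It read 5135.6, 5964.8 and 4991.6 in the conventional corpus and 4940.7, 4056.2 and 4155.4 in the conventional descending colon. In the germ-free jejunum it read 117.9, 108.9 and 298.7, and in the conventional jejunum 62.7, 131.5 and 5185.5. Without the array labelled conventional jejunum 3, no jejunum array came near the corpus or the colon. Car2 was 15.3-fold lower in the jejunum than in the corpus of conventional mice (log2 difference -3.93 ± 1.28, limma adjusted p = 0.0369) and 31.1-fold lower in germ-free mice (-4.96 ± 1.28, limma adjusted p = 0.00976). The conventional call held in only 1 of 6 fits that each left out 1 array, the fit without conventional jejunum 3, while the germ-free call held in all 6. The differences without the 3 arrays were 58.9-fold (-5.88 ± 0.35, limma adjusted p = 3.2e-10) and 35.4-fold (-5.14 ± 0.35, adjusted p = 1.86e-09).

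The descending colon of germ-free mice had 26.4-fold more Car2 signal than the jejunum (4.72 ± 1.28, limma adjusted p = 0.0226), called in 1 of 6 fits with an array left out and highly so without the 3 arrays (adjusted p = 2.25e-09). In conventional mice the same difference was 3.64 ± 1.28 with all arrays (limma adjusted p = 0.4) and 5.59 ± 0.35 without the 3 (adjusted p = 1.88e-09). Corpus and descending colon did not differ detectably in Car2, at -0.29 ± 1.28 in conventional and -0.24 ± 1.28 in germ-free mice, with adjusted p of 0.937 and 0.967 in limma, or -0.29 ± 0.31 and -0.42 ± 0.35 (adjusted p = 0.604 and 0.451) without the 3 arrays. The conventional arrays of these groups did not overlap, by a narrow gap: the lowest corpus array read 4991.6 and the highest colon array 4940.7. In that comparison 7 of 9 family sets stood apart, where 36.1% of all sets did.

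Car2 levels in the 3 germ-free rectum arrays were 4793.9, 4780.6 and 4784.4. The highest Car2 signal of all, 7653.3, was on germ-free corpus 2, which also had the highest sum of Atp4a, Atp4b and Cblif, 35660.6. Atp4a and Atp4b are pump genes of parietal cells. Cblif, the intrinsic factor gene, is not particular to parietal cells, so the sum covers gastric gland genes and not parietal cells alone. In the jejunum the germ-free array with the most Car2, 298.7, had Atp4b, the pump's beta subunit, at 400.8, where the other 2 had 10.1 and 5.6. Sums of these gastric gland genes were 16564.4 to 26236.4 in the conventional corpus and 150.9 to 263.6 in the conventional descending colon, where Atp4b was under the floor on all 3 arrays and Car2 was nevertheless above 4000. The closest patterns to Car2 were those of Anxa1, a phospholipid-binding annexin (r = 0.966), Fkbp9, a prolyl isomerase of the endoplasmic reticulum (r = 0.961), and Tst, a mitochondrial sulfur transferase (r = 0.960). The probe set for Anxa1 read 1756.1 to 1981.1 in the conventional corpus and 104.5 to 137.1 in the germ-free jejunum.

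Car3 was called lower in the jejunum than in the corpus and the descending colon of germ-free mice, and no difference between the microbial states was called for it. In the corpus it read 86.1, 140.9 and 114.3 in conventional and 579.7, 239.8 and 304.1 in germ-free mice. In the jejunum it read 90.5, 101.9 and 230.5 in conventional and 10.8, 152.9 and 103.8 in germ-free mice. The descending colon arrays lay between 249.1 and 444.3 in both states, and the rectum read 342.2, 207.4 and 224.8 in conventional and 55.3, 94.1 and 207.6 in germ-free mice. Germ-free corpus lay wholly above conventional corpus, and germ-free jejunum wholly below germ-free corpus and germ-free descending colon. Of all sets, 13.1%, 28.1% and 29.7% stood apart in these comparisons, in that order.

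In germ-free mice Car3 was 5.01-fold lower in the jejunum than in the corpus (log2 difference -2.32 ± 0.57, limma adjusted p = 0.0075) and 4.35-fold higher in the descending colon than in the jejunum (2.12 ± 0.57, limma adjusted p = 0.0224). Without germ-free jejunum 1, whose Car3 of 10.8 was under the floor, neither was called: -1.47 ± 0.49 (adjusted p = 0.0565) and 1.26 ± 0.49 (adjusted p = 0.154). Without the 3 arrays both were called (adjusted p = 0.00593 and 0.0108). Both were lost when only the groups compared entered the fit (adjusted p = 0.113 and 0.136). The germ-free change between descending colon and rectum was -1.56 ± 0.57, not called (limma adjusted p = 1), and -1.56 ± 0.56 without the 3 arrays (adjusted p = 1).

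Car3 ran with the fat hormone gene Adipoq (r = 0.959 over 24 arrays), and next with both probe sets of Scd1, a fatty acid desaturase (r = 0.900 and 0.875). Germ-free jejunum 1 was lowest for both Car3 and Adipoq, 10.8 and 23.8, and germ-free corpus 1, highest for Car3, had Adipoq at 411.2. The summed signal of 8 measured adipocyte genes, out of 11 on the list, was 1025.6 to 1227.6 in the conventional corpus and 1494.4 to 1994.3 in the germ-free corpus. It was 763.8 to 933.8 in the germ-free jejunum and 1306 to 1622.1 in the germ-free descending colon. Cidec, a lipid droplet gene, was under the floor on all corpus arrays of both states, as was Retn in the conventional corpus. The sums stood apart in the same direction as Car3 in all 3 of those comparisons. Adipoq is itself 1 of the 8 summed genes. Smooth muscle sums also stood apart in that direction in the germ-free regional comparisons. They were 7267.2 to 12225.7 in the germ-free jejunum, 18608.6 to 32943.4 in its corpus and 17070.9 to 20441.6 in its descending colon. Between conventional and germ-free corpus the smooth muscle sums overlapped. On germ-free corpus 1, the 11 skeletal muscle genes also summed to 6565.9, against at most 1777.8 on any other array, with the actin gene Acta1 at 3288.7. The part of fat or muscle RNA in the Car3 differences was not tested.

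**Figure D2:**
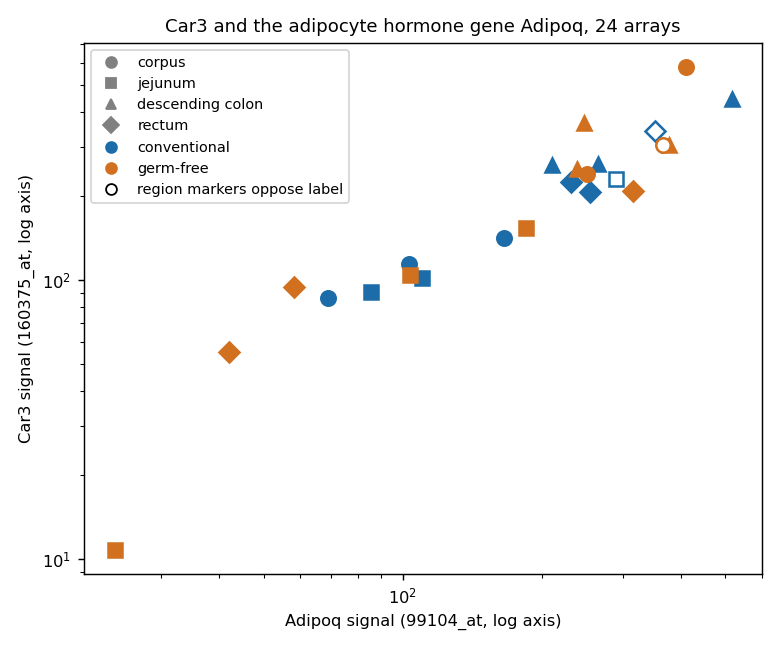
Car3 signal against Adipoq signal on 24 arrays, both on log axes, with shape for region, colour for microbial state and open points for the 3 arrays whose region markers oppose the label. The arrays form a single rising band, with germ-free jejunum 1 at the bottom left and conventional descending colon 3 and germ-free corpus 1 at the top right.

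In conventional mice Car4 rose from the corpus through the jejunum to the descending colon. Its first probe set read 63.7, 77.6 and 46.1 in the conventional corpus, 953.5, 618.9 and 2938.1 in the conventional jejunum, and 3444.4, 2912.3 and 3816.8 in the conventional descending colon. The jejunum lay wholly above the corpus, and the colon above the jejunum except for the array with hindgut markers. Of all sets, 37% stood apart between jejunum and corpus of conventional mice. Germ-free arrays read 1112.1, 975.2 and 959.7 in the jejunum, 2227.4, 3353.3 and 3901.2 in the descending colon, and 2784.4, 4613.8 and 4759.5 in the rectum. Germ-free corpus read 66.2, 164.1 and 3899.1, the last on the array that resembles germ-free descending colon 3, where the same set read 3901.2. The conventional rectum read 728.2, 2875.7 and 2417.5, with its lowest value on the array with small intestinal markers. It lay wholly below the conventional descending colon, without a call. In that comparison 1 of 9 family sets stood apart, where 8.06% of all sets did.

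In conventional mice the Car4 signal of the jejunum exceeded that of the corpus 19.7-fold (log2 difference 4.30 ± 0.92, limma adjusted p = 0.00261) and that of the descending colon exceeded the corpus 55.2-fold (5.79 ± 0.92, limma adjusted p = 0.000329). Both calls held in every fit that left out 1 array of the groups compared and under all other settings tried. The first difference without the 3 arrays was 12.6-fold (3.65 ± 0.34, adjusted p = 9.6e-08). In germ-free mice the corresponding values were 1.54 ± 0.92 and 3.14 ± 0.92 with all arrays (limma adjusted p = 0.256 and 0.0844), and 3.28 ± 0.34 and 4.88 ± 0.34 without the 3 (adjusted p = 4.18e-07 and 3.05e-09). Descending colon over jejunum was not called with all arrays in limma's 8-group fit and was called without the 3, at 4.39-fold in conventional (2.13 ± 0.34, limma adjusted p = 0.000207) and 3.04-fold in germ-free mice (1.60 ± 0.30, adjusted p = 0.000846). For the germ-free difference, a fit of those 2 groups alone also gave a call (adjusted p = 0.0108).

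The second Car4 set, called the family set here, carries the suffix that Affymetrix gives to sets whose probes can match a family of similar sequences. It moved with the first (r = 0.869 over 24 arrays) over a much narrower range, 136 to 533.3 or 3.92-fold, where the first set spanned 103-fold. It was called higher in the descending colon than in the corpus of conventional mice, by 2.44-fold (1.29 ± 0.38, limma adjusted p = 0.0282), in 1 of 6 fits with an array left out and at 1.29 ± 0.18 without the 3 arrays (adjusted p = 2.09e-05). Jejunum over corpus was 0.48 ± 0.38 in conventional mice on this set (adjusted p = 0.437), so the pair of sets did not give the same call there. Patterns most like the first set were Klk1, a tissue kallikrein (r = 0.975), Klk1b5, a close relative whose probes may cross-react with it (r = 0.969), and Acp5, an acid phosphatase (r = 0.962). The set for Klk1 read 83.8 to 146 in the conventional corpus and 5182.4 to 6386 in the conventional descending colon.

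Car12 went the other way from Car4. It read 253.7, 276.2 and 271.2 in the conventional corpus and 82.9, 145.9 and 64 in the conventional descending colon, with no overlap. In that comparison 36.1% of all sets stood apart. It was 2.91-fold lower in the colon (log2 difference -1.54 ± 0.48, limma adjusted p = 0.0373), a call that held in 1 of 6 fits with an array left out and was lost when array medians were set equal (adjusted p = 0.0607). It was -1.54 ± 0.40 without the 3 arrays (adjusted p = 0.00928). Germ-free corpus read 382.9, 236.8 and 120.6, the lowest on the array with hindgut markers, and germ-free descending colon read 231, 137.6 and 126.4, so these groups overlapped (-0.48 ± 0.48, adjusted p = 0.726). The sum of 8 squamous epithelium genes, the lining of the forestomach, was 43283.2 to 51235.9 in the conventional corpus and 284.6 to 442.7 in the conventional descending colon, where Krt14 and Lgals7 were under the floor on all 3 arrays. In the germ-free corpus it was 569.4 on the array where Car12 was 120.6, and 51049.7 and 42150.5 on the other 2. Not all 8 genes were high in the corpus. Krt5 was at or under the floor on all conventional corpus arrays, and Krt14 on all germ-free corpus arrays. On germ-free corpus 3, where Car12 was 120.6, the gastric gland sum of Atp4a, Atp4b and Cblif was also low, 305.1 against 18234.9 and 35660.6. So were the chief cell gene Chia1, 39.1 against 5910.5 and 13978.7, and the gastric surface and neck genes Muc5ac, Tff1 and Tff2, summing to 860.7 against 22781.4 and 41798.6. The squamous list thus did not stand alone there. The part of squamous epithelium or of gastric cells in the Car12 levels was not tested. Over the 24 arrays Car12 had r = -0.776 with the first Car4 set and -0.595 with Car1, while Car1 and that Car4 set had r = 0.737 and Car2 and that Car4 set r = 0.040. These are descriptions of arrays that share regions.

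The bases just before the transcription start are shown for these opposed membrane enzymes, from RefSeq's promoter table for GRCm38.p6, which held 5 of the 9 genes and none of Car1, Car2, Car3 and Car8. Each stretch is 250 bases long and ends 1 base before the start, on the plus strand, Car4 from chr11:84957504-84957753 and Car12 from chr9:66713436-66713685. Capitals mark the letters of a motif searched.
Car4: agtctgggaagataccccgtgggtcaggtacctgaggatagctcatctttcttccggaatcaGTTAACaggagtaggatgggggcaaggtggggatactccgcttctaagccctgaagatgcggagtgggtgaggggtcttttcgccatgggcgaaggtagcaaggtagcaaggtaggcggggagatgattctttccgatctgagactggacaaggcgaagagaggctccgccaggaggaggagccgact
Car12: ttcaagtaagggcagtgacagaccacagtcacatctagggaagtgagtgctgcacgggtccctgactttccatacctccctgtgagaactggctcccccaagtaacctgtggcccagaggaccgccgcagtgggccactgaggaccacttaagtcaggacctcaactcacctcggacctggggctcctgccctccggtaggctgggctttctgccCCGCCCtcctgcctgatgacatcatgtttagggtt
In Car4 the capitals are GTTAAC, beginning 188 bases before the start and added to the search after this sequence had been seen. These letters were searched as a partial site of HNF1, a factor of gut and liver epithelium, and are not its whole motif. GTTAAC reads the same on both strands, and 2.56% of 32851 promoters hold it. In Car12 the capitals are the Sp1 core GGGCGG on the minus strand, 35 bases before the start, which 32.7% of the promoters hold. The CDX core TTTATG (10.8% of promoters), the GATA motif AGATAA (9.99%), the TATA box TATAAA (12.4%) and the hypoxia core ACGTG (16.6%), searched on both strands, were in neither stretch. A match is a match of letters and not a site in use.

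Car14, Car8 and Car5a stayed low in every region. Car14 read 19 to 104.1 over the 24 arrays, Car8 14 to 595.7 and Car5a 21.4 to 95. None was called between regions, with log2 differences of at most 1.72 ± 0.69 (Car8, germ-free descending colon over corpus, limma adjusted p = 0.23). All but 1 Car8 signal were at or under 97. The exception, 595.7, was germ-free descending colon 1, whose Hoxb13 of 111.6 stands below that of the other hindgut arrays other than conventional rectum 1.

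**Figure D3:**
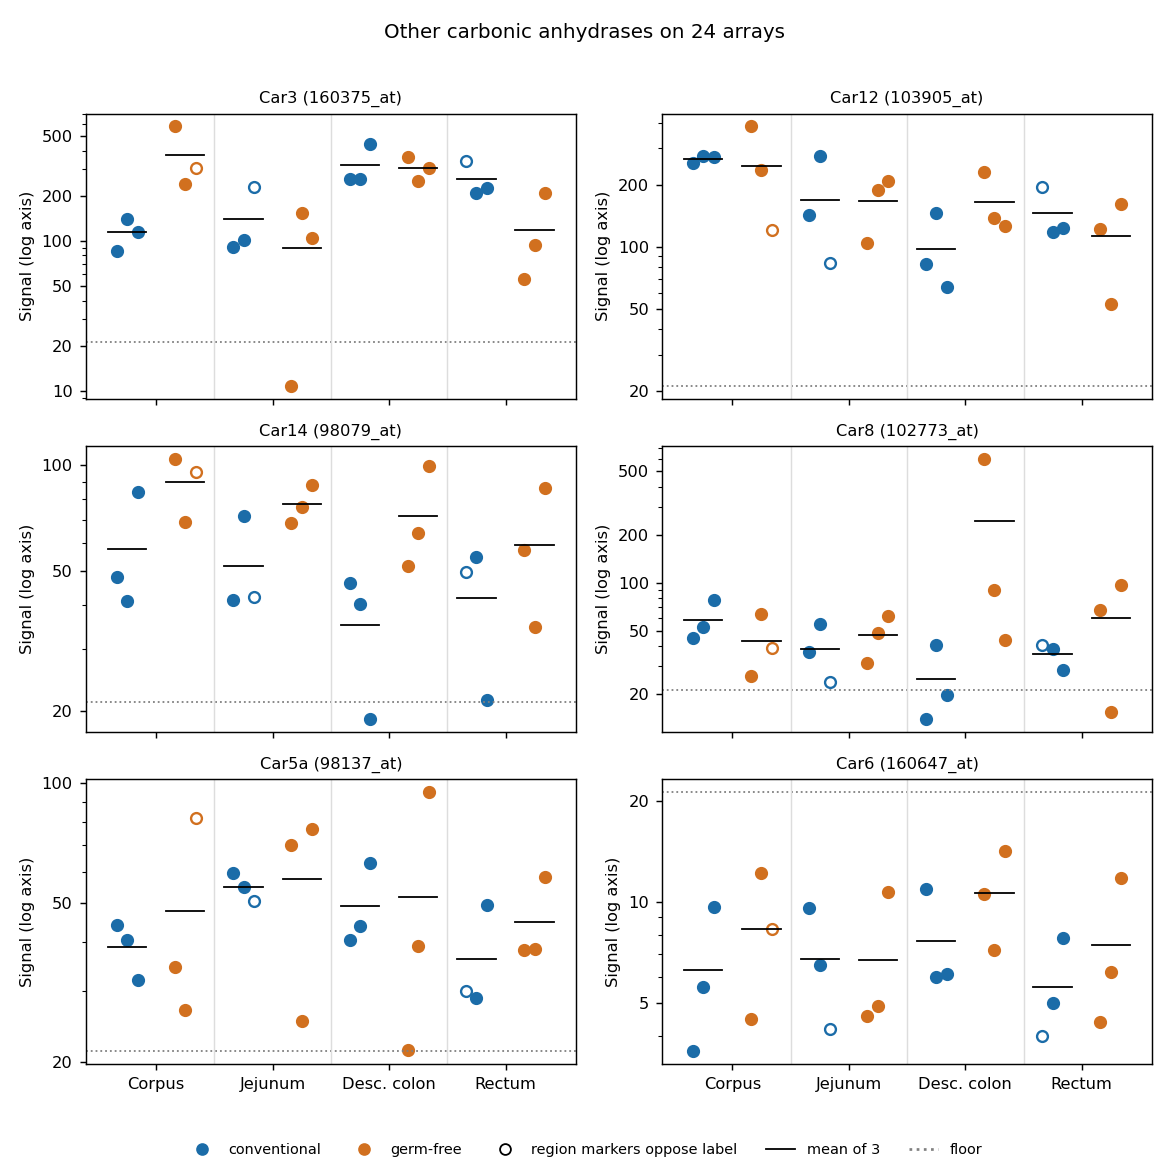
Signal of Car3, Car12, Car14, Car8, Car5a and Car6 on each of 24 arrays, on log axes of different ranges, by region and microbial state, with group means as bars and the floor of 21.2 dotted. Car6 lies under the floor everywhere, between 3.6 and 14.2, and a single Car8 point stands out at 595.7.

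Read against the whole array, the family's regional counts were as follows. In the jejunum against the corpus of conventional mice, 2 of 9 carbonic anhydrase sets were called, Car4 higher and Car2 lower, where 18.8% of all sets were called. In germ-free mice 2 of 9 were called, Car2 and Car3, both lower, where 21.8% of all sets were. Those counts are close to the share of all sets. Without the 3 arrays the counts were 2 of 9 (all sets 25.8%) and 5 of 9 (all sets 29.1%), the added germ-free calls being both Car4 sets higher and Car1 lower. That Car1 value was -3.04 ± 1.03 (limma adjusted p = 0.0322), with the germ-free corpus arrays left in it at 15.7 and 1432.5.

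For the descending colon against the corpus of conventional mice, 4 of 9 sets were called (all sets 12.9%), with Car1 and both Car4 sets higher and Car12 lower, and the same 4 were called without the 3 arrays (all sets 18.6%). The germ-free comparison called 0 of 9 (all sets 0%), with 3 of 9 and 1315 of 9033 at an unadjusted p under 0.05 in limma. It called 3 of 9 without the 3 arrays, Car1 and both Car4 sets, all higher (all sets 17.7%). Between descending colon and jejunum, 0 of 9 were called in conventional mice (all sets 0%), with 4 of 9 and 989 of 9033 at an unadjusted p under 0.05. There, 4 of 9 were called without the 3 arrays, Car1, Car2 and both Car4 sets, all higher (all sets 11.5%).

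In germ-free mice the descending colon differed from the jejunum in 3 of 9 sets, Car1, Car2 and Car3, all higher (all sets 11.8%), and without the 3 arrays in 5 of 9 with both Car4 sets added (all sets 19.4%). Median log2 differences over the 9 sets were 1.55 there and 0.17 over all sets. Between rectum and descending colon, 0 of 9 sets were called in conventional mice (all sets 0.0111%) and 0 of 9 in germ-free mice (all sets 0.0111%), with 0 of 9 and 168 of 9033 at an unadjusted p under 0.05 in limma in conventional mice and 1 of 9 and 198 of 9033 in germ-free mice. Without the 3 arrays 0 of 9 were called in either state (all sets 0.0111% and 0.0221%). The conventional and germ-free comparisons use different arrays, and calls present in only 1 of them were not tested as a difference. Setting array medians equal moved the median of all sets by -0.28 in the germ-free colon against jejunum and by 0.26 in the germ-free jejunum against corpus, with shifts between -0.17 and 0.13 in the other comparisons. No called carbonic anhydrase value turned its sign under that scaling or quantile normalization.

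**Figure D4:**
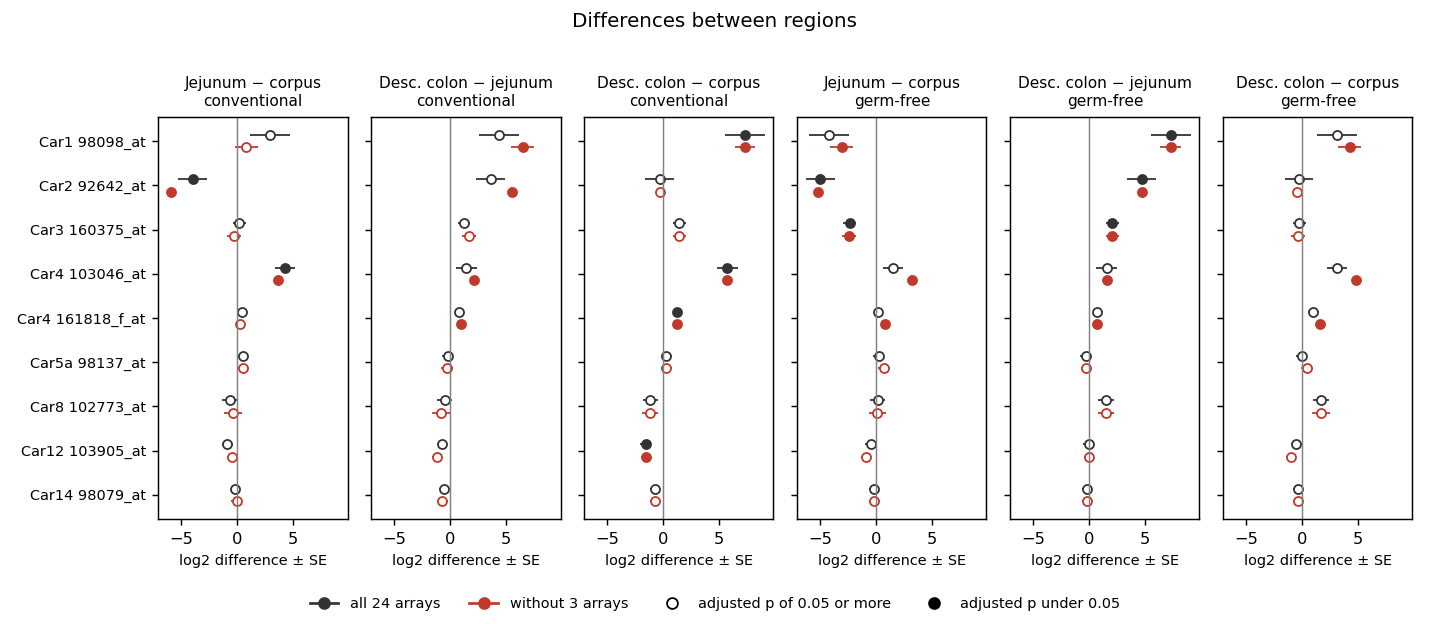
Log2 differences between regions with standard errors for the 9 tested carbonic anhydrase probe sets, with all 24 arrays in dark and without 3 arrays in red, filled where the limma adjusted p is under 0.05. Car2 falls to the left in jejunum minus corpus, by 3.93 and 4.96 with all arrays, and Car1 and Car4 lie to the right in every descending colon panel.

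The other genes of acid and bicarbonate transport came from a list of 46, of which 28 were on the platform and 26 were tested, by 33 probe sets. In conventional mice 6 rose and 9 fell from corpus to jejunum, and 7 rose and 8 fell from corpus to descending colon. In germ-free mice 4 rose and 5 fell from corpus to jejunum (all sets 21.8%). From jejunum to descending colon 4 rose and 2 fell (all sets 11.8%), and from corpus to descending colon limma called none (all sets 0%). Without the 3 arrays, 8 rose and 9 fell from corpus to jejunum in conventional mice (all sets 25.8%). In the same fit 8 rose and 5 fell from corpus to descending colon in germ-free mice (all sets 17.7%). With all arrays the 2 conventional comparisons with the corpus called more of the list than any other, 15 of 26 tested genes each. Of all sets, 18.8% and 12.9% were called there. A gene counted when any of its sets was called, so counts of genes and shares of sets differ in unit. The 4 genes of lowest p-value in jejunum against corpus of conventional mice are given here. Guca2b, the gut peptide uroguanylin, and Gucy2c, its receptor guanylate cyclase, were under the floor on all 3 conventional corpus arrays and at least 66.2-fold and 44.3-fold higher in the jejunum (6.05 ± 0.85 and 5.47 ± 0.80, limma adjusted p = 0.000126 and 0.000159). Without the 3 arrays these were 7.02 ± 0.32, or at least 130-fold, and 5.59 ± 0.35 (adjusted p = 1.17e-11 and 5.14e-10). A second Gucy2c set was not called (1.47 ± 0.61, adjusted p = 0.104).

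Cftr, the chloride and bicarbonate channel, rose 10.6-fold from the conventional corpus to the conventional jejunum (3.40 ± 0.61, limma adjusted p = 0.000614), with 435.4 to 664.3 against 42.6 to 58.9. Atp4a, the catalytic subunit of the gastric pump, was 66.4-fold lower (-6.05 ± 1.12, limma adjusted p = 0.000814), with 110.6 to 185.9 against 7435.3 to 10363.5. The differences were 3.21 ± 0.30 for Cftr and -6.27 ± 0.79 for Atp4a without the 3 arrays (limma adjusted p = 1.51e-07 and 5.94e-06). Car2 thus fell with Atp4a from corpus to jejunum, while in the conventional descending colon Car2 was back above 4000 and Atp4a stayed at 121.4 to 203.1. Car4, on its first set, rose from corpus to jejunum as Cftr, Guca2b and Gucy2c did. The partner genes named here were chosen by p-value in this same comparison, so strong movement there was fixed by the choice. Of the 26 tested genes of that list, 6 rose and 9 fell, with no common direction.

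The germ-free state was not associated with a called change in any carbonic anhydrase. In the corpus 0 of 9 sets were called (all sets 0%; without the 3 arrays 0 of 9, all sets 0.0664%), with 3 of 9 and 817 of 9033 at an unadjusted p under 0.05 in limma. In the jejunum 0 of 9 were called (all sets 0.465%; without the 3 arrays 0 of 9, all sets 0.565%), with 0 of 9 and 1185 of 9033 at an unadjusted p under 0.05. In the descending colon 0 of 9 were called (all sets 0.0111%; without the 3 arrays 0 of 9, all sets 0.0886%), with 2 of 9 and 733 of 9033 unadjusted. The rectum called 0 of 9 with and without the 3 arrays (all sets 0.0111% in both), with 2 of 9 and 315 of 9033 unadjusted. Over the mean of the 4 regions 0 of 9 were called (all sets 1.68%), with 2 of 9 and 1632 of 9033 unadjusted. For a state difference that varied by region 0 of 9 had a call (all sets 0.0221%), with 1 of 9 and 488 of 9033 unadjusted.

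The values behind those counts were wide. In the corpus the germ-free arrays lay wholly above the conventional ones for 1 of 9 sets, Car3, where 13.1% of all sets stood wholly apart, with signals under the floor set to it. Car3 was 3.12-fold higher there (1.64 ± 0.57, limma adjusted p = 0.415). For Car1, under the floor on all conventional corpus arrays and on germ-free corpus 1, the fitted difference was 4.17 ± 1.79 (adjusted p = 0.525) and 3.04 ± 1.03 (adjusted p = 0.521) without the 3 arrays, and neither is a bound. Car4 (first set) was 5.71-fold higher (2.51 ± 0.92, limma adjusted p = 0.417) with all arrays and 1.71-fold (0.77 ± 0.34, adjusted p = 0.724) without the 3. Without germ-free corpus 1, which left the array resembling descending colon 3 in place, that Car4 difference was called (3.71 ± 0.86, adjusted p = 0.0365). In the jejunum 0 of 9 sets stood apart between the states, where 15.4% of all sets did. Car1 there, under the floor on all germ-free arrays and on conventional jejunum 1, had a fitted difference of -2.98 ± 1.79 (adjusted p = 0.517) and of -0.82 ± 1.03 without the 3 arrays. Car2 in the jejunum was -1.16 ± 1.28 with all arrays and 0.79 ± 0.35 without the 3, so its direction turned (limma adjusted p = 0.767 and 0.368).

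In the descending colon 2 of 9 sets lay wholly higher in germ-free mice, Car8 and Car14, where 14% of all sets stood apart. Car8 read 14, 40.6 and 19.8 in conventional and 595.7, 89.4 and 43.4 in germ-free mice, a 5.02-fold difference (2.33 ± 0.69, limma adjusted p = 0.53), which was 2.37-fold (1.24 ± 0.56, adjusted p = 0.397) without germ-free descending colon 1. Car14 read 46.3, 40.2 and 19 against 51.6, 64.4 and 99.5, a 2.03-fold difference (1.02 ± 0.42, limma adjusted p = 0.602). The rectum had 2 of 9 sets wholly higher in germ-free mice, Car2 and the Car4 family set, where 11.1% stood apart. Car2 there was 2.08 ± 1.28 with all arrays and the Car4 set 0.86 ± 0.38 (limma adjusted p = 0.982 for both), and the conventional array with small intestinal markers was the lowest of its group for both.

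Averaged over the 4 regions, Car14 had the smallest p-value of the family, 1.64-fold higher in germ-free mice (0.71 ± 0.21, limma adjusted p = 0.0883), and the Car4 family set was 1.48-fold higher (0.57 ± 0.19, adjusted p = 0.125). The group mean of Car14 was higher in germ-free than in conventional mice in each of the 4 regions, at 89.7 ± 18.3 against 57.8 ± 23.0 in the corpus, 77.4 ± 9.67 against 51.8 ± 17.5 in the jejunum, 71.8 ± 24.8 against 35.2 ± 14.3 in the descending colon and 59.5 ± 25.9 against 42.0 ± 17.9 in the rectum (SD, n = 3). Neither was called. Car14 kept this direction in all 4 regions when arrays were quantile normalized or their medians set equal. Without 5 arrays, those 3 with germ-free rectum 1 and germ-free descending colon 1, the Car4 family set was called (0.41 ± 0.09, adjusted p = 0.0379). Of the F tests for a state difference that varied by region, Car3 had the smallest p-value (F = 5.14, unadjusted p = 0.0085, limma adjusted p = 0.89).

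**Figure D5:**
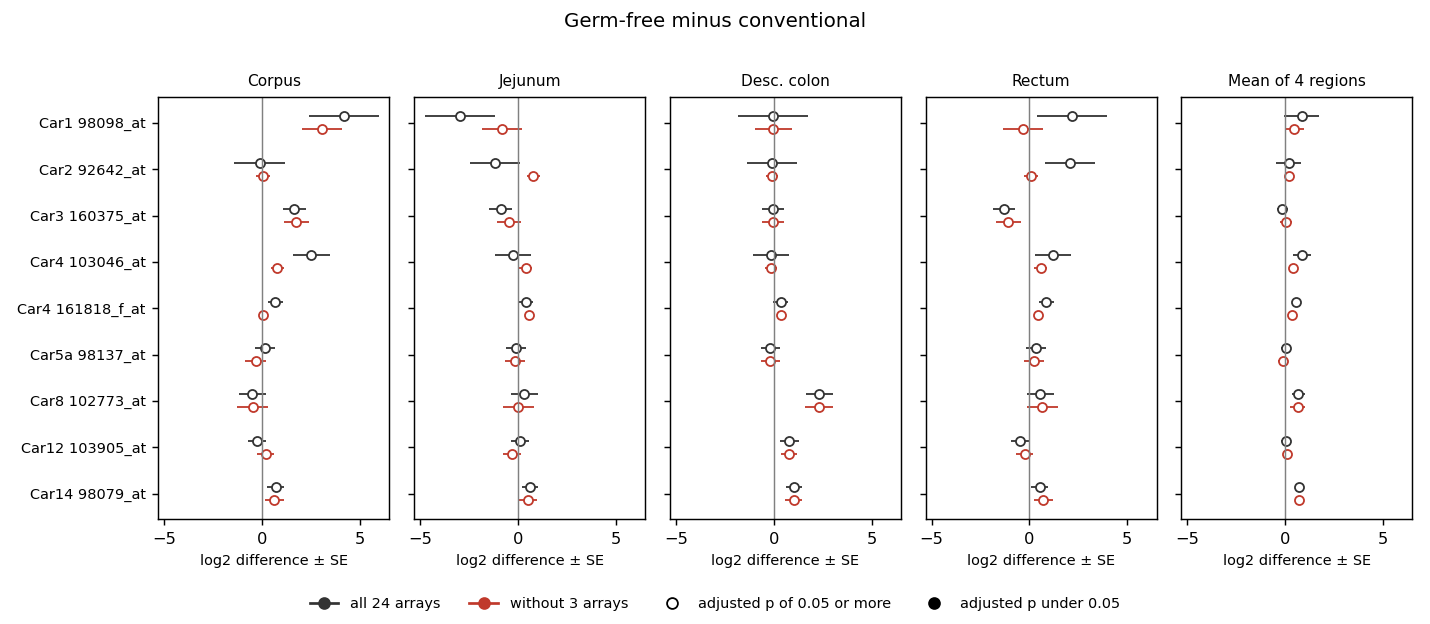
Germ-free minus conventional log2 differences with standard errors for the 9 tested carbonic anhydrase probe sets in each region and over the mean of the 4 regions, with all 24 arrays in dark and without 3 arrays in red. All points are open, since no limma adjusted p is under 0.05; the Car1 bars are the widest, with a standard error of 1.79 in each region with all arrays.

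Mean levels over the 8 groups gave each gene its own order. Car1 ran from 3934 ± 2576 in the germ-free descending colon through 3497 ± 709 in the conventional descending colon, 3239 ± 1494 in the germ-free rectum and 2498 ± 2220 in the conventional rectum, which overlapped, to 1092 ± 953 in the germ-free corpus (SD, n = 3). The conventional corpus and the germ-free jejunum were under the floor on all arrays and have no order, and germ-free corpus 1 was under it as well. Car2 ran from 5364 ± 525 in the conventional corpus, 5145 ± 2175 in the germ-free corpus, 4786 ± 6.85 in the germ-free rectum, 4384 ± 485 in the conventional descending colon and 4144 ± 313 in the germ-free descending colon to 175 ± 107 in the germ-free jejunum, and every neighbouring pair in its order overlapped. Car4 (first set) ran from 4053 ± 1101 in the germ-free rectum to 62.5 ± 15.8 in the conventional corpus, with the next group below the rectum, conventional descending colon at 3391 ± 455, overlapping it. The lowest-ranked neighbours for Car4, germ-free jejunum at 1016 ± 83.9 and conventional corpus, did not overlap.

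Car3 means ran from 375 ± 181 in the germ-free corpus to 89.2 ± 72.2 in the germ-free jejunum, Car12 from 267 ± 11.8 in the conventional corpus to 97.6 ± 42.9 in the conventional descending colon, and Car14 from 89.7 ± 18.3 in the germ-free corpus to 35.2 ± 14.3 in the conventional descending colon. Car5a means lay between 57.4 ± 28.0 and 36.1 ± 11.5, and the germ-free descending colon alone spanned 21.4 to 95. Car1, Car3 and Car2 lie next to each other in that order on chromosome 3, after Car13, for which no probe set is named here. Their array patterns differed: r was 0.632 for Car1 with Car2, 0.403 for Car1 with Car3 and 0.385 for Car2 with Car3, over 24 arrays that share regions.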

How the data were processed

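The deposited values are signal intensities on a linear scale, 1 column per array, made by the authors with steps not given in the sources used here; each array's mean without the highest and lowest 2% of values lies between 199.957 and 199.968, so arrays had been scaled. Nothing was rescaled. Signals under 21.2 were raised to it, log2 was taken, 66 control sets and sets not above 51.5 on 3 arrays were left out, and 8 group means were fitted over 9033 sets with limma 3.58.1 in R 4.3.3 (intensity trend, Benjamini-Hochberg), which was tested on simulated data. Probe sets were named from the platform annotation: 10855 have 1 gene, 396 several and 1237 none. Named genes are all family members and, for Car1, Car2, Car3 and the first Car4 set only, the 3 most correlated sets. Markers and the 4 partner genes of lowest p in the comparison calling most of that list are also named. Array number limits precision, no batch was labelled, and alternatives covered scaling, floor, filter, trend, replicate block and arrays left out. The members and lists were chosen with earlier results of these data known.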

Additional observations from a re-analysis of the deposited data

How the results depend on the processing

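The number of carbonic anhydrase probe sets called moved with these settings. With no filter on low signals it was 1 for conventional jejunum against corpus (2 in the report) and 2 for conventional descending colon against corpus (4). With only the compared groups in the fit it was 1 for jejunum against corpus in both conventional and germ-free mice (2 each). Without the 3 arrays, and likewise without 5, it was 4 for conventional descending colon against jejunum (0), 5 for germ-free jejunum against corpus (2), 5 for germ-free descending colon against jejunum (3) and 3 for germ-free descending colon against corpus (0); without 5 it was also 1 for the state difference over the mean of the regions (0). Leaving out single arrays gave 1 to 2 for conventional jejunum against corpus, 0 to 2 for conventional descending colon against jejunum, 2 to 4 for conventional descending colon against corpus, 1 to 4 for germ-free jejunum against corpus, 0 to 3 for germ-free descending colon against jejunum, 0 to 2 for germ-free descending colon against corpus and 0 to 1 for germ-free against conventional corpus. The cause was not tested. For single sets, the Car4 family set in germ-free jejunum against corpus, 0.22 in the report, was -0.03 without germ-free corpus 1, -0.14 without germ-free corpus 2 and 0.84 without germ-free corpus 3. No other of 391 single-set values of the regional comparisons turned its sign; 34 lost a call and 32 gained 1.

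With a replicate block of microbial state and number (consensus correlation 0.12), the carbonic anhydrase counts stayed at 2, 0, 4 and 0 in conventional and 2, 3, 0 and 0 in germ-free regional comparisons, and 0 in each state comparison. Of 16 pairs of groups, the germ-free descending colon and rectum was the only 1 in which every same-numbered pair of arrays had correlated deviations over 0.1 (0.157 to 0.455, against -0.40 to 0.08 for different numbers), so numbers pair arrays there by that rule; the block left 0 of 9 sets called. Over all regions 12 of 18 such pairs exceeded 0.1 in germ-free and 4 of 18 in conventional mice, and 2 of 12 did across states, a hint from the data and not from the design. All 4 conventional pairs include the rectum group, whose array 1 has markers against its label. Conventional jejunum 3, also such an array, had r = 0.666 with rectum 3 and 0.679 with rectum 2. The germ-free pairs include corpus 3 with descending colon 3 (0.391), the closest arrays of all. These counts cannot tell pairing by number from the effect of such arrays. Signal near the floor limits Car5a, Car8 and Car14, and bounds Car1 in the corpus and jejunum.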
